A study of Mus musculus with 6 samples.

Results

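The 10 genes described here are killer-cell receptors, the transcription factors that go with them and the contents of cytotoxic granules: Klri2, Klrd1, Klrk1, Klrc1, Eomes, Tbx21, Gzma, Gzmb, Prf1 and Nkg7. They were taken by symbol from the 31276 genes listed, and all 10 were listed in every library. They were chosen on differences between the groups in these same libraries, so their differences between groups are given below as descriptions, without p-values. Where a member is said to pass a limit, that too is a description and no independent test. The libraries came from obstructed kidneys of C57BL/6 mice, taken 7 days after surgery that blocked 1 ureter. In the SH045 group, 3 mice had received SH045, the compound by which the study inhibited the TRPC6 cation channel, and in the Vehicle group 3 mice had received vehicle. All 6 mice carried the obstruction, kidney tissue was dissociated with no sort named in the protocol, and the labels give no dose, age or sex. Contralateral kidneys were not analysed here.

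Cytotoxic lymphocytes kill by releasing granules onto a target cell. Perforin opens the target's membrane, granzymes enter and cleave proteins, and killer lectin-like receptors on the lymphocyte surface decide whether a target is attacked or spared. Natural killer (NK) cells carry these genes from the start, whereas CD8 T cells gain them after activation. The 4 receptor genes lie within the natural killer gene complex at chr6:129591782-129740484 (GRCm38, GENCODE vM21), a span of 148.7 kb that also holds Klri1, and the other 6 members lie on 6 other chromosomes.

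The 6 libraries held 25978 barcodes and between 21186872 and 32256602 unique molecular identifiers (UMIs, counted molecules). Of these, 23578 barcodes were kept, with at least 200 genes and at most 50% mitochondrially encoded UMIs. The share of barcodes above that mitochondrial limit was 10.3, 10.4 and 16.5% in SH045 libraries, against 4.17, 5.29 and 3.56% in Vehicle libraries. Among kept barcodes, 356 had a sequence found in 2 or more libraries, 35 of them gated. Levels below are CPM, a gene's UMIs per 1000000 UMIs of the barcodes named, with 1 library per mouse. In whole-kidney sums, fewer cells of a type and less RNA per cell cannot be told apart.

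A barcode with a Cd3d, Cd3e or Cd3g UMI and a Cd8a UMI was called a CD8 T barcode, one with a Cd3 UMI and no Cd8a UMI other T, and one with an Ncr1 UMI and no Cd3 UMI NK. This gave 327 CD8 T, 1650 other T and 150 NK barcodes, 2127 in all. None of the gates was pure. Klrb1c was detected in 60% and Klre1 in 58.7% of NK barcodes, and Cd5, Cd6, Tcrg-C1 and Tcrg-C2 were at 0 there. Other T cell genes were detected in NK barcodes, with Trac in 7.33%, Trdc in 13.3%, Trbc1 in 35.3%, Trbc2 in 28.0%, Cd2 in 47.3% and Lck in 43.3%. In CD8 T barcodes, Cd8b1 was detected in 68.5% and Trac in 82.6%. In other T barcodes Trac was detected in 46.5% and Cd4 in 18.8%. The macrophage gene C1qa was detected in 29.3% of NK, 20.5% of CD8 T and 36.3% of other T barcodes, and Lyz2 in 34.0, 33.9 and 51.8%.

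NK barcodes made up a larger share of the gated barcodes in SH045 kidneys. The share was 12.1, 5.67 and 11.6% in SH045 libraries, against 5.62, 1.40 and 2.61% in Vehicle libraries. The groups did not overlap, although the lowest SH045 library and the highest Vehicle library lay next to each other. The means were 9.78 ± 3.57% in SH045 and 3.21 ± 2.17% in Vehicle libraries (SD, n = 3 each), a ratio of 3.05. A two-sided exact permutation test gave p = 0.1, the smallest p that 3 against 3 libraries allows, or 0.4 after adjustment over the 4 shares tested. Of all kept barcodes, NK barcodes were 1.75, 0.477 and 1.13% in SH045 libraries, against 0.362, 0.0700 and 0.290% in Vehicle libraries, again without overlap. The CD8 T share of gated barcodes was 16.2 ± 2.62% in SH045 and 14.9 ± 4.93% in Vehicle libraries (exact permutation p = 0.9, n = 3 each), and the other T share 74.1 ± 5.65% and 81.9 ± 6.62% (exact permutation p = 0.2). The NK counts were small. They came to 60, 19 and 41 barcodes in SH045 libraries, against 15, 3 and 12 in Vehicle libraries. With NK barcodes gated on Ncr1 or Klrb1c instead, both NK shares overlapped between the groups. The second SH045 library then had 23 NK, 48 CD8 T and 268 other T barcodes among 3985 kept. The first Vehicle library had 27, 53 and 199 among 4145 kept.

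**Figure D1:**
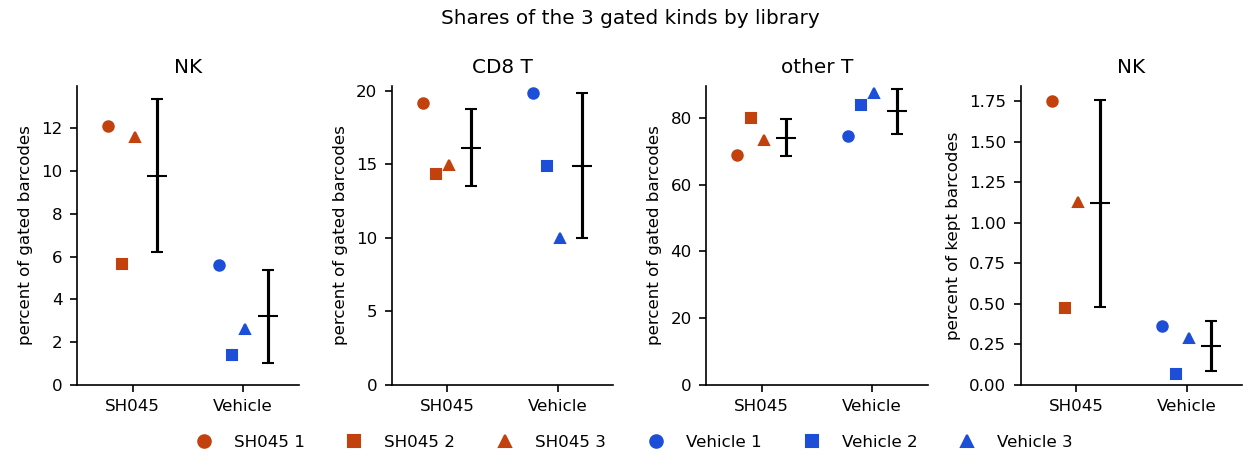
Shares of NK, CD8 T and other T barcodes among gated barcodes and of NK barcodes among kept barcodes (y axes, percent), with 1 point per library and the mean ± SD beside the points (n = 3 per group). The NK points of SH045 lie above those of Vehicle in both NK panels, from 5.67 to 12.1% against 1.40 to 5.62% of gated barcodes, while the CD8 T and other T points overlap.

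Among the 3 kinds, Klri2 was highest in NK barcodes by the widest margin of the 4 receptors, although 51.5% of its UMIs lay in ungated barcodes. It encodes an activating receptor that works as a partner of the Klre1 product. Over the 6 libraries its level averaged 195.4 CPM in NK barcodes (range 43.9 to 359), 5.37 CPM in CD8 T barcodes (0 to 13.8) and 3.88 CPM in other T barcodes (0.667 to 7.39), so NK barcodes stood apart from CD8 T barcodes by a ratio of means of 36.4. It was detected in 39.3% of NK barcodes, 1.53% of CD8 T barcodes and 1.33% of other T barcodes. In barcodes with macrophage markers the share was 0.40%, and in barcodes with tubule markers 0.14%. The medians were 3307.5 UMIs per NK barcode, 3820.0 per CD8 T barcode, 4222.5 per other T barcode, 3649.0 in the macrophage gate and 6594.0 in the tubule gate. With each barcode thinned to 2000 UMIs, Klri2 was found in 32.7% of NK, 1.53% of CD8 T and 0.97% of other T barcodes.

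Klrk1 encodes NKG2D, the activating receptor for stress-induced MHC-like ligands. It averaged 432 CPM in NK barcodes (206 to 646), 99.7 CPM in CD8 T barcodes (50.1 to 135) and 46.8 CPM in other T barcodes (22.0 to 81.7). The NK values lay apart from the CD8 T values, while CD8 T and other T overlapped. Klrd1 encodes CD94, which pairs with NKG2A, the product of Klrc1, into an inhibitory receptor for a nonclassical MHC molecule. Klrd1 averaged 274 CPM in NK, 132 CPM in CD8 T and 43.6 CPM in other T barcodes, and was higher in NK than in CD8 T barcodes in 6 of 6 libraries although the ranges over libraries overlapped. Klrc1 varied widely between libraries in NK barcodes. NK barcodes held 34.7, 20.2 and 159 CPM of Klrc1 in SH045 libraries, against 117, 0 and 77.3 CPM in Vehicle libraries, and NK exceeded CD8 T in 4 of 6 libraries.

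Eomes and Tbx21 encode the paired T-box factors that set up the killer programme. Eomes averaged 93.6 CPM in NK, 56.4 CPM in CD8 T and 5.92 CPM in other T barcodes. NK and CD8 T overlapped in their ranges, and CD8 T exceeded other T in 6 of 6 libraries. Tbx21 was as high in CD8 T as in NK barcodes, at 69.0 and 67.4 CPM, and reached 20.5 CPM in other T barcodes.

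The granule genes split by kind. Gzma encodes granzyme A, a trypsin-like protease, and averaged 2772 CPM in NK barcodes (1324 to 5641), 341 CPM in CD8 T barcodes and 229 CPM in other T barcodes. Prf1, the pore-forming perforin, followed the same order, with 322 CPM in NK, 39.0 CPM in CD8 T and 7.40 CPM in other T barcodes. For both genes the NK values stood apart from the CD8 T values, by ratios of means of 8.12 and 8.24. Here and above, the NK means count the second Vehicle library, with 3 NK barcodes, as fully as the others. Its Prf1 value was the highest, at 789.8 CPM from 11 UMIs in 1 barcode. Gzmb encodes granzyme B, which cleaves after aspartate and starts apoptosis, and was at 177 CPM in NK and 245 CPM in CD8 T barcodes, with overlapping ranges. NK exceeded CD8 T in 4 of 6 libraries. The means for NK and CD8 T were 297 and 230 CPM in SH045 libraries, against 57.0 and 259 CPM in Vehicle libraries. The Vehicle NK value came from 4 UMIs. Nkg7, a granule membrane protein, was at 1876 CPM in NK and 2181 CPM in CD8 T barcodes, where 93.0% of barcodes had a UMI, and its 455 CPM in other T barcodes lay below both ranges.

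**Figure D2:**
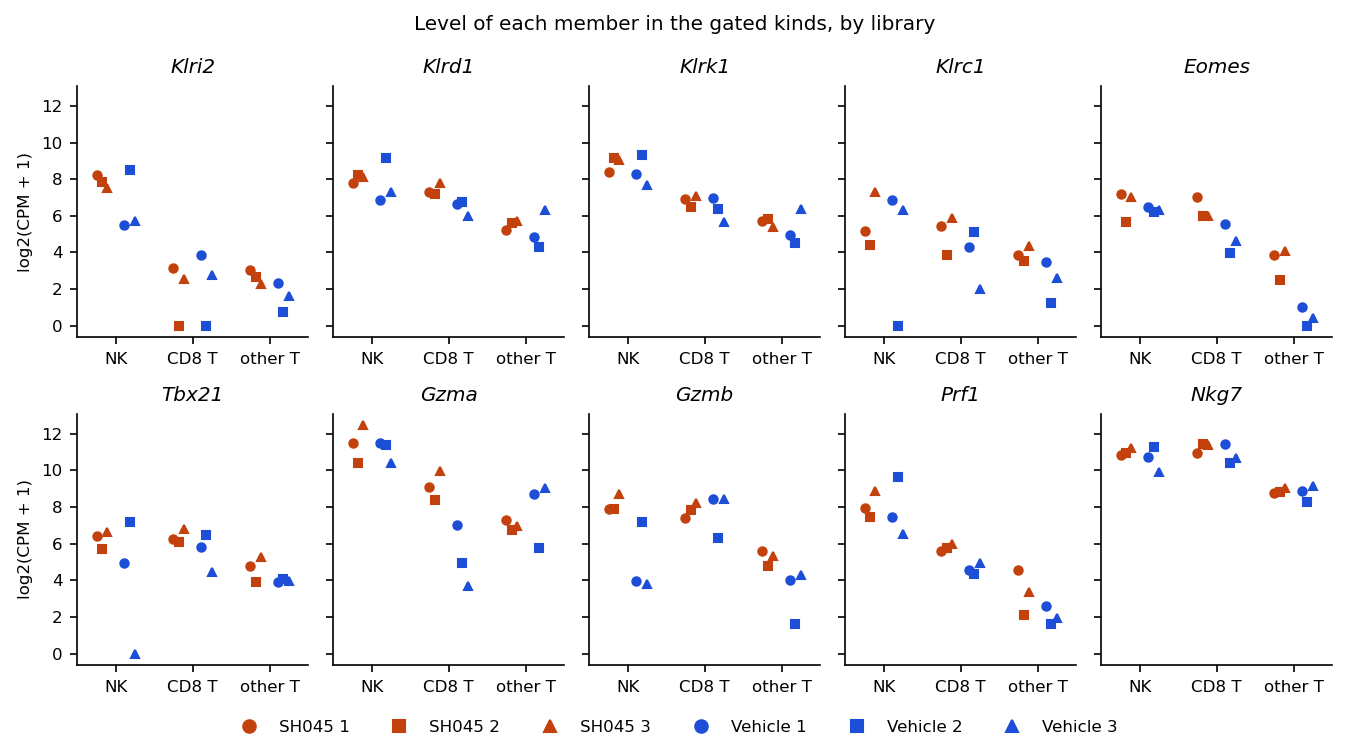
Level of each of the 10 members in NK, CD8 T and other T barcodes, as log2(CPM + 1) on the y axis, with 1 point per library. Klri2, Klrk1, Gzma and Prf1 lie higher in NK than in CD8 T barcodes in every library, whereas Gzmb, Tbx21 and Nkg7 overlap between these kinds.

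Members also met in the same barcodes. At least 5 of the 10 were detected in 54.7% of NK barcodes, 9.17% of CD8 T barcodes and 3.15% of other T barcodes, and none was detected in 21 of 150 NK, 15 of 327 CD8 T and 871 of 1650 other T barcodes. Of the 59 NK barcodes with Klri2, 58 also had Nkg7, 48 had Gzma and 48 had Klrk1. Of the 44 NK barcodes with Gzmb, 42 also had Gzma. In CD8 T barcodes 23 of the 88 with Gzmb also had Gzma. Gzma was in 59.3% of all NK and 14.7% of all CD8 T barcodes.

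Promoter sequence is shown for Gzma and Gzmb, which separate the groups below, Gzma in CD8 T and Gzmb in NK barcodes, and for Nkg7, which stood out in both NK and CD8 T barcodes. The RefSeq table (GRCm38.p6) held 8 of the 10 members, each from 250 bases before to 50 bases after the start. GTGTGA, a core of the T-box binding motif, was searched on both strands (TCACAC on the reverse) and is in capitals. It was found in 2 of the 8 promoters, those of Gzmb and Nkg7, beginning 15 and 12 bases before the start, and in 14.5% of all 32851 promoters in the table. The longer form AGGTGTGA was found in Nkg7 alone among the 8, and in 1.3% of all promoters. A match describes the letters and shows no binding. Positions count from the start given in the table.
Gzma, chr13:113100932-113101231, minus strand: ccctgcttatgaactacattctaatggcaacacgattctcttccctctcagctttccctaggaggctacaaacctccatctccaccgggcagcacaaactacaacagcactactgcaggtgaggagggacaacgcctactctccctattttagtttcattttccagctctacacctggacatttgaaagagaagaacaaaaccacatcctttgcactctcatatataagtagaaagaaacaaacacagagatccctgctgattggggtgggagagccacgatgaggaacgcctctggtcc
Gzmb, chr14:56262285-56262584, minus strand: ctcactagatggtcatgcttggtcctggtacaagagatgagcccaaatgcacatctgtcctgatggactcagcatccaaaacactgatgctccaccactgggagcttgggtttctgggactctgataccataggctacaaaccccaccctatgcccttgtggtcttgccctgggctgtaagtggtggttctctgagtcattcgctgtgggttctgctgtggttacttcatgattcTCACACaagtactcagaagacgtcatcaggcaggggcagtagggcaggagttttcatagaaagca
Nkg7, chr7:43436888-43437187, plus strand: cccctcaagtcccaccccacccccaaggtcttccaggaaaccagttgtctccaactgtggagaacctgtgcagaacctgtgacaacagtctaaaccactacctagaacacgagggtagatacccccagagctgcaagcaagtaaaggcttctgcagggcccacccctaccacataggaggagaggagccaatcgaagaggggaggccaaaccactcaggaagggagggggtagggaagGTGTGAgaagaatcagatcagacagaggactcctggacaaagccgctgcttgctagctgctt

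Klrd1 and Klrk1 were mostly found outside the lymphocyte gates. Ungated barcodes held 67.3% of the Klrd1 UMIs and 70.3% of the Klrk1 UMIs, against 10.6% for Gzmb and 11.6% for Nkg7. Much of this lay in barcodes with dendritic cell markers, which were gated after the data were seen. Klrk1 was detected in 33.5% of the 937 ungated barcodes with at least 2 UMIs of Xcr1 and Clec9a, at 95.3 CPM. Klrd1 was detected in 39.3% of the 122 barcodes with Siglech, a plasmacytoid dendritic marker, and in 33.0% of the 1668 barcodes with Flt3 or Cd209a, at 117 CPM in these last. Klrk1 in the Siglech barcodes was in 4.10%, so these receptors were spread differently over the dendritic gates. In barcodes with macrophage markers and no dendritic marker, Klrk1 was detected in 4.98% and Klrd1 in 0.830%. In barcodes with tubule markers and no dendritic marker the shares were 0.538% for Klrk1 and 0.694% for Klrd1. The median depth was 5238.0, 3435.5 and 5004.5 UMIs in the Xcr1, Siglech and Flt3 gates, 3599.0 in these macrophage barcodes and 6564.0 in these tubule barcodes. Klri2 had 88 UMIs in the Flt3 or Cd209a gate, in 4.56% of its barcodes, against 152 UMIs in NK barcodes.

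The dendritic gates held 7.08, 8.11 and 6.95% of kept barcodes in SH045 libraries, against 14.7, 14.1 and 16.9% in Vehicle libraries. As UMIs per UMIs of all kept barcodes (CPM of the library), the dendritic gates contributed 6.28, 6.01 and 5.25 CPM of Klrd1 in SH045 libraries, against 13.1, 10.2 and 15.9 in Vehicle libraries. NK barcodes contributed 3.22, 1.31 and 2.36 CPM of Klrd1 in SH045 libraries, against 0.407, 0.257 and 0.458 in Vehicle libraries. Neither pair of groups overlapped, and they lay in opposite directions. Within the Flt3 or Cd209a gate Klrd1 did not separate the groups, at 186, 109 and 127 CPM in SH045 libraries, against 102, 111 and 125 CPM in Vehicle libraries. Klrk1 was lower in SH045 libraries within barcodes with macrophage markers and no dendritic marker, at 15.2, 14.9 and 7.26 CPM, against 18.6, 22.4 and 20.96 CPM in Vehicle libraries, without overlap. The share of all genes without overlap was not counted for the sums of this paragraph, so these separations are values only.

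**Figure D3:**
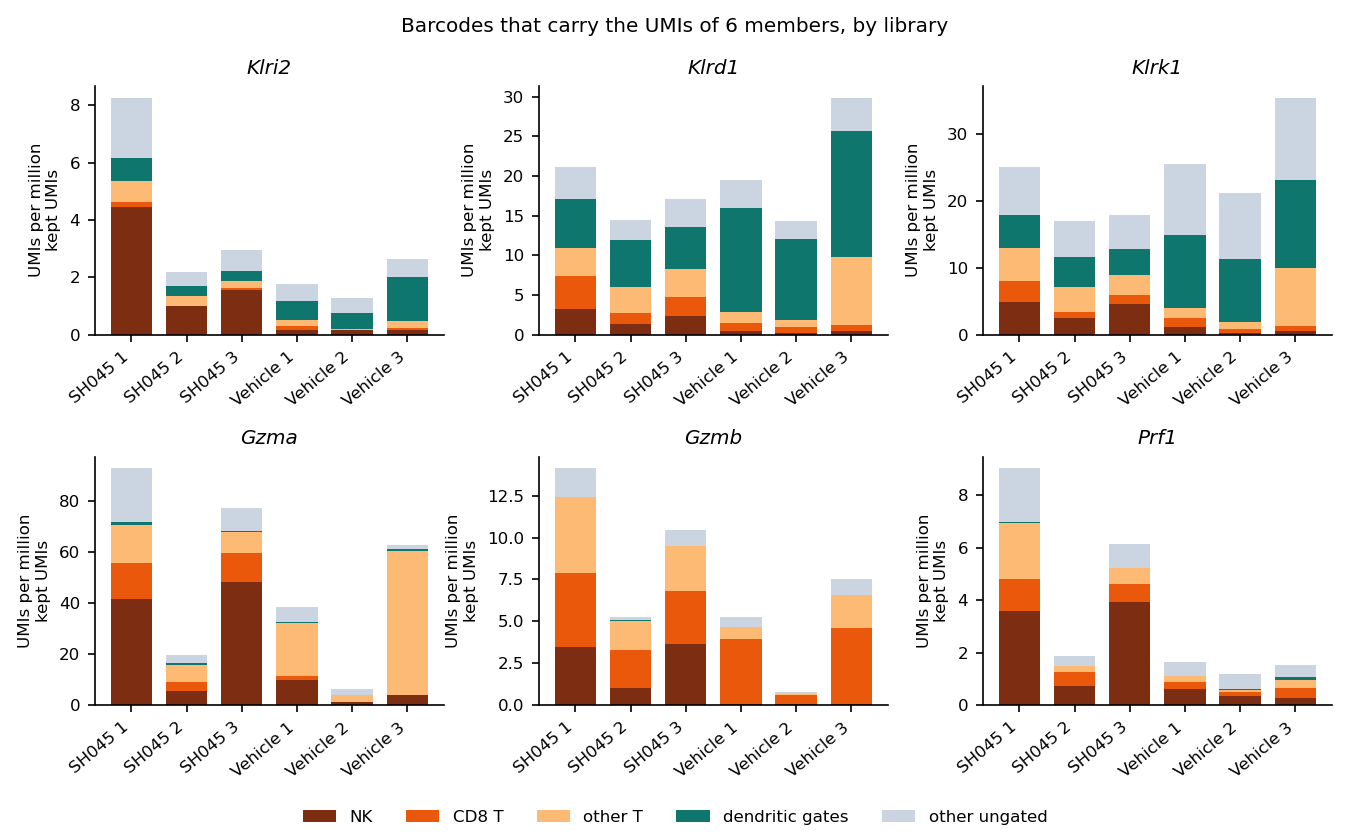
CPM of 6 members over all kept barcodes (y axis), by library, stacked by the barcodes that carry them: NK, CD8 T, other T, the 3 dendritic gates together, and all other ungated barcodes. The dendritic part of Klrd1 is 5.25 to 6.28 in SH045 and 10.2 to 15.9 in Vehicle libraries, and the other T part of Gzma reaches 56.1 in the third Vehicle library.

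Summed over whole libraries, Eomes and Prf1 were the members whose levels did not overlap between SH045 and Vehicle kidneys. With edgeR's quasi-likelihood test, 0 of the 10 members passed the Benjamini-Hochberg limit of 0.05 over 16532 genes, of which 4.31% passed (4406 genes had an unadjusted p under 0.05). DESeq2 passed 3 of the 10, with 2 higher and 1 lower in SH045 libraries, and 11.9% of all genes. Eomes was at 8.68, 1.39 and 3.52 CPM in SH045 libraries, against 1.07, 0.386 and 0.839 CPM in Vehicle libraries. Prf1 was at 9.03, 1.87 and 6.14 CPM in SH045 libraries, against 1.63, 1.19 and 1.53 CPM in Vehicle libraries. Both were higher in every SH045 library, as were 34.8% of all genes tested. Their log2 changes were 2.32 ± 0.67 and 1.71 ± 0.50 (SE). The whole-library log2 change of Klrk1 was -0.70 ± 0.21 and that of Klrd1 -0.52 ± 0.26, although the levels overlapped between the groups.

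In the T and NK barcodes as 1 sum, Klri2 and Eomes had the highest log2 changes, within their errors of each other. All 10 members had a positive log2 change in the main fit, where the median over all genes was 0.015. The sign was not stable for Gzma (-0.183 to 0.721) and Nkg7 (-0.031 to 0.496) when 1 library was left out. Klri2 was at 38.9, 16.7 and 21.2 CPM in SH045 libraries, against 7.86, 3.49 and 3.73 CPM in Vehicle libraries, a log2 change of 2.31 ± 0.41. It was the 1 member of 10 that passed, against 0.467% of 10919 genes. It did not pass without the first SH045, the second Vehicle or the third Vehicle library, or with the wider NK gate below, where its log2 change ran from 1.75 to 2.15. Klri2, Klrk1, Eomes and Prf1 did not overlap between the groups, as was the case in the higher direction for 18.6% of genes tested. Eomes had a log2 change of 2.26 ± 0.65 and was at 50.04, 14.03 and 32.4 CPM in SH045 libraries, against 13.4, 2.33 and 4.66 CPM in Vehicle libraries. Prf1 was at 50.4, 18.4 and 59.0 CPM in SH045 libraries, against 17.3, 10.5 and 7.76 CPM in Vehicle libraries. The second SH045 library was the lowest of its group for both and lay just above the first Vehicle library.

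Within CD8 T barcodes the clearest separation was in Gzma. Its level was 537, 332 and 1011 CPM in SH045 libraries, against 129, 29.1 and 11.8 CPM in Vehicle libraries, from 277, 75 and 210 UMIs against 28, 6 and 4 UMIs. Every SH045 library lay above every Vehicle library, with a log2 change of 3.52 ± 0.97. It ran from 2.94 to 5.03 when 1 library was left out, highest without the first Vehicle library, where it passed the limit. A few barcodes carried these UMIs. Gzma was detected in 40 of 196 SH045 and 8 of 131 Vehicle CD8 T barcodes. In the second SH045 library 1 barcode held 62 of the 75 UMIs, so the separation from the first Vehicle library rests on that barcode. In that Vehicle library 1 barcode held 18 of the 28 UMIs. Klrd1, Eomes and Prf1 also did not overlap. Klrd1 was at 157, 146 and 217 CPM in SH045 libraries, against 101, 107 and 61.9 CPM in Vehicle libraries. Eomes was at 130, 61.9 and 62.6 CPM in SH045 libraries, against 45.9, 14.6 and 23.6 CPM in Vehicle libraries. Gzmb overlapped, at 167, 230 and 294 CPM in SH045 libraries, against 349, 77.7 and 351 CPM in Vehicle libraries. In edgeR 0 of the 8 members tested passed, as did 0% of 3424 genes (324 with an unadjusted p under 0.05), and in DESeq2 19 genes passed, 0 of them members. Of the genes tested, 8.41% did not overlap with SH045 higher, against 4 of the 8 members tested. The summed dendritic markers in CD8 T barcodes were 849 to 1819 CPM in SH045 libraries, against 2479 to 2979 CPM in Vehicle libraries. With barcodes holding macrophage or tubule markers removed, Gzma was 699, 403 and 862 CPM in SH045 libraries, against 132, 46.4 and 17.9 CPM in Vehicle libraries. Prf1 was at 46.5, 53.05 and 62.6 CPM in SH045 libraries, against 22.9, 19.4 and 29.5 CPM in Vehicle libraries, and overlapped once those barcodes were removed.

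In other T barcodes Gzma lay the other way on average and overlapped. It was at 154, 104 and 123 CPM in SH045 libraries, against 412, 54.1 and 525 CPM in Vehicle libraries. The third Vehicle library held 65 of the 117 other T barcodes with a Trdc UMI, the gamma-delta T cell receptor constant gene, and 1260 of its 1471 Gzma UMIs were in them. Klrd1 was detected in 76.9% and Klrk1 in 69.2% of these 65 barcodes. In other T barcodes without Trdc, Gzma was at 151, 54.4 and 106 CPM in SH045 libraries, against 425, 54.9 and 87.1 CPM in Vehicle libraries. The first Vehicle library was then the highest, and 1 barcode held 186 of its 406 UMIs. Gzmb did not overlap, at 47.0, 26.2 and 38.5 CPM in SH045 libraries, against 15.2, 2.00 and 18.5 CPM in Vehicle libraries. Single barcodes weighed on this. In the second SH045 library 1 barcode held 29 of the 40 Gzmb UMIs, and in the third Vehicle library 1 held 26 of 52. Klrc1 did not overlap either, at 13.7, 10.5 and 19.6 CPM in SH045 libraries, against 10.1, 1.34 and 4.99 CPM in Vehicle libraries. Eomes had 26, 7 and 21 UMIs in SH045 libraries, against 1, 0 and 1 in Vehicle libraries. The ratio per UMI, pooled over the libraries of each group, was 30.1, with an exact 95% counting interval of 7.94 to 255. This interval covers counting error only and leaves out the spread between barcodes and between mice. Eomes, Klri2 and Prf1 were under the low-count filter here. Of the 7 members tested 0 passed, against 0.378% of 10572 genes (1432 with an unadjusted p under 0.05). In DESeq2 0 of them passed too. Of the 7, 2 did not overlap with SH045 higher, against 18.3% of the genes tested. The summed macrophage markers were 3340 to 5265 CPM in SH045 libraries, against 5999 to 8128 CPM in Vehicle libraries. The summed fibroblast markers were 391 to 1218 CPM in SH045 libraries, against 13.2 to 76.8 CPM in Vehicle libraries, and the part of either in these values was not tested.

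In NK barcodes Gzmb separated the groups. It had 68, 23 and 69 UMIs in SH045 libraries, against 1, 2 and 1 UMIs in Vehicle libraries. These are 236, 233 and 422 CPM in SH045 libraries, against 14.6, 144 and 12.9 CPM in Vehicle libraries. All SH045 libraries lay above all Vehicle libraries. The share of all genes without overlap was not counted for these NK sums of 6 libraries. Pooled over libraries, 41 of 120 SH045 barcodes but 3 of 30 Vehicle barcodes had a Gzmb UMI. In the second SH045 library 1 barcode held 14 of the 23 UMIs, so the separation from the second Vehicle library rests largely on that barcode. The ratio per UMI, pooled over libraries, was 11.6, with an exact 95% counting interval of 4.45 to 43.2. It covers counting error only, not the spread between barcodes and between mice. Klri2 did not separate the groups, at 302, 233 and 184 CPM in SH045 libraries, against 43.9, 359 and 51.6 CPM in Vehicle libraries. The second Vehicle library, with 3 NK barcodes and 5 Klri2 UMIs, was the highest. Gzma in NK barcodes overlapped, at 2829.8, 1324 and 5641 CPM in SH045 libraries, against 2851, 2657 and 1328 CPM in Vehicle libraries. Prf1 overlapped, at 243, 172 and 459 CPM in SH045 libraries, against 175, 789.8 and 90.2 CPM in Vehicle libraries. Eomes overlapped as well, at 146, 50.6 and 128 CPM in SH045 libraries, against 87.7, 71.8 and 77.3 CPM in Vehicle libraries.

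The second Vehicle library had too few NK barcodes for a fit over all 6. Without it, 1 of the 9 members tested passed, Gzmb with a log2 change of 4.37 ± 0.64, against 0.799% of 2003 genes. Of the 9, 5 members did not overlap with SH045 higher (Klri2, Klrd1, Klrk1, Gzmb and Nkg7), against 15.2% of genes tested. With 2 Vehicle UMIs left, Gzmb had a ratio per UMI of 21.2 with a counting interval of 5.78 to 177, again for counting error only. When NK barcodes were gated on Ncr1 or Klrb1c, all 6 libraries could be fitted, with 84, 23 and 55 barcodes in SH045 libraries, against 27, 15 and 19 in Vehicle libraries. Gzmb was then 227, 205 and 334 CPM in SH045 libraries, against 30.3, 23.5 and 8.92 CPM in Vehicle libraries, and was the 1 of 7 members that passed, against 0.044% of 2274 genes. The same 5 members did not overlap as in the 5-library sums, against 12.2% of genes tested. Klri2 no longer overlapped under that gate, at 255, 205 and 161 CPM in SH045 libraries, against 60.5, 153 and 53.5 CPM in Vehicle libraries. The 5-library fit lost the Gzmb call without the first or the second SH045 library, and the wider gate lost it without the first SH045, the third SH045 or the third Vehicle library. The summed macrophage markers in NK barcodes were 2427 to 3801 CPM in SH045 libraries, against 4739 to 12399 CPM in Vehicle libraries, and the dendritic markers 1139 to 3336 CPM in SH045 libraries, against 4739 to 6902 CPM in Vehicle libraries. Endothelial markers summed to 61.2 to 309 CPM in SH045 libraries, against 0 to 14.6 CPM in Vehicle libraries, and fibroblast markers to 12.2 to 177 CPM, against 0 in all 3 Vehicle libraries. The part of these cells in the NK values was not tested. With macrophage- and tubule-marked barcodes removed, Gzmb was 293, 529 and 704 CPM in SH045 libraries, against 39.3, 196 and 32.9 CPM in Vehicle libraries, still without overlap, from 42, 13 and 30 barcodes against 5, 2 and 7.

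**Figure D4:**
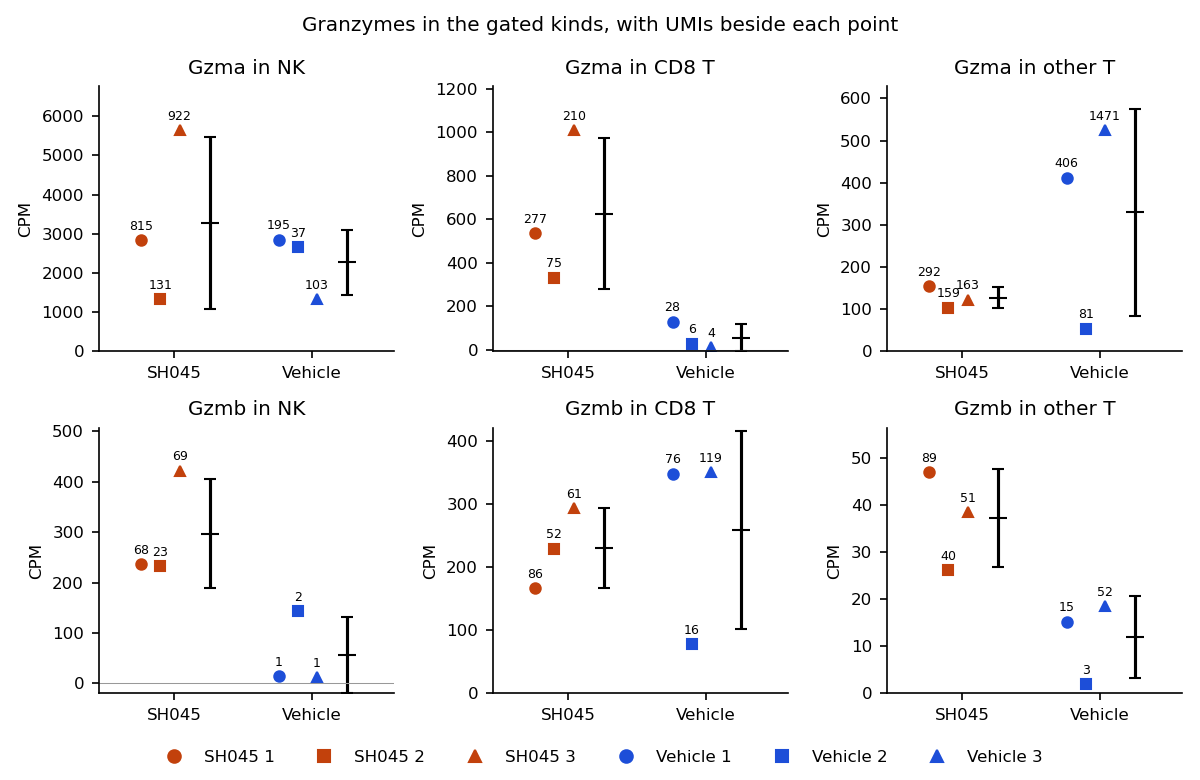
CPM of Gzma (top) and Gzmb (bottom) in NK, CD8 T and other T barcodes (y axis), 1 point per library with its UMI count, and the mean ± SD beside the points (n = 3 per group). Gzma separates the groups in CD8 T barcodes (332 to 1011 against 11.8 to 129 CPM), and Gzmb separates them in NK barcodes (233 to 422 against 12.9 to 144 CPM). In the second SH045 library 1 barcode holds most of the UMIs in each case.

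The contrast of the kinds was also fitted, as the SH045 over Vehicle log2 change in NK minus that in CD8 T barcodes, with the library as a block. The fit used the NK sums of all 6 libraries, the 3 barcodes of the second Vehicle library included. For Gzmb it was 3.92 ± 0.74 and for Gzma -3.16 ± 0.50, and these were the 2 members past the edgeR limit, as were 0.611% of 4419 genes. The members were chosen on differences in these same libraries, so this describes the pattern above and is no independent test of it. Without the second Vehicle library they were 5.04 ± 0.65, which passed, and -2.91 ± 0.60, which did not, against 0.286% of genes. With the wider NK gate they were 3.68 ± 0.62 and -2.71 ± 0.51, and neither passed, against 0.023% of genes.

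How much of the difference over all T and NK barcodes went with the make-up of kinds, and how much with levels within kinds, depended on the gene and on the NK gate. Each library's level was recomputed with only the make-up of kinds varying, and again with only the levels within kinds varying. For Eomes the measured log2 ratio of group means was 2.25, with 0.46 from the shift of kinds and 1.63 from levels within kinds, and the within-kind values did not overlap between groups. Gzmb had 0.26 from the shift and 0.69 within kinds, Klrc1 0.32 and 0.98, and Tbx21 0.16 and 0.69. Gzma had 0.55 from the shift and -0.10 within kinds. Klri2 had 1.098 from the shift and 0.71 within kinds, of 2.35 measured, and Prf1 0.92 and 0.36, of 1.85 measured. The parts do not add up to the measured ratio, so some of it lies in neither part alone. The shift-only values overlapped between the groups for all 10 members, but did not overlap for 10 without the first Vehicle library, 7 without the second SH045 library, 3 with marker barcodes removed and 1 without the third SH045 library. In 5 of the 10 the shift part was the larger. The 3 NK barcodes of the second Vehicle library weighed on this. Without that library Klri2 had 0.74 from the shift and 1.57 within kinds, Prf1 0.57 and 1.203, and the shift part was the larger in 3 members. Without the second SH045 or the third SH045 library, or with marker barcodes removed, it was the larger in 6. With the wider NK gate it was the larger in 1, Gzma, with 0.28 from the shift and 0.23 within kinds. Eomes, Gzmb, Klrc1 and Tbx21 had the larger part within kinds in all 3 versions.

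**Figure D5:**
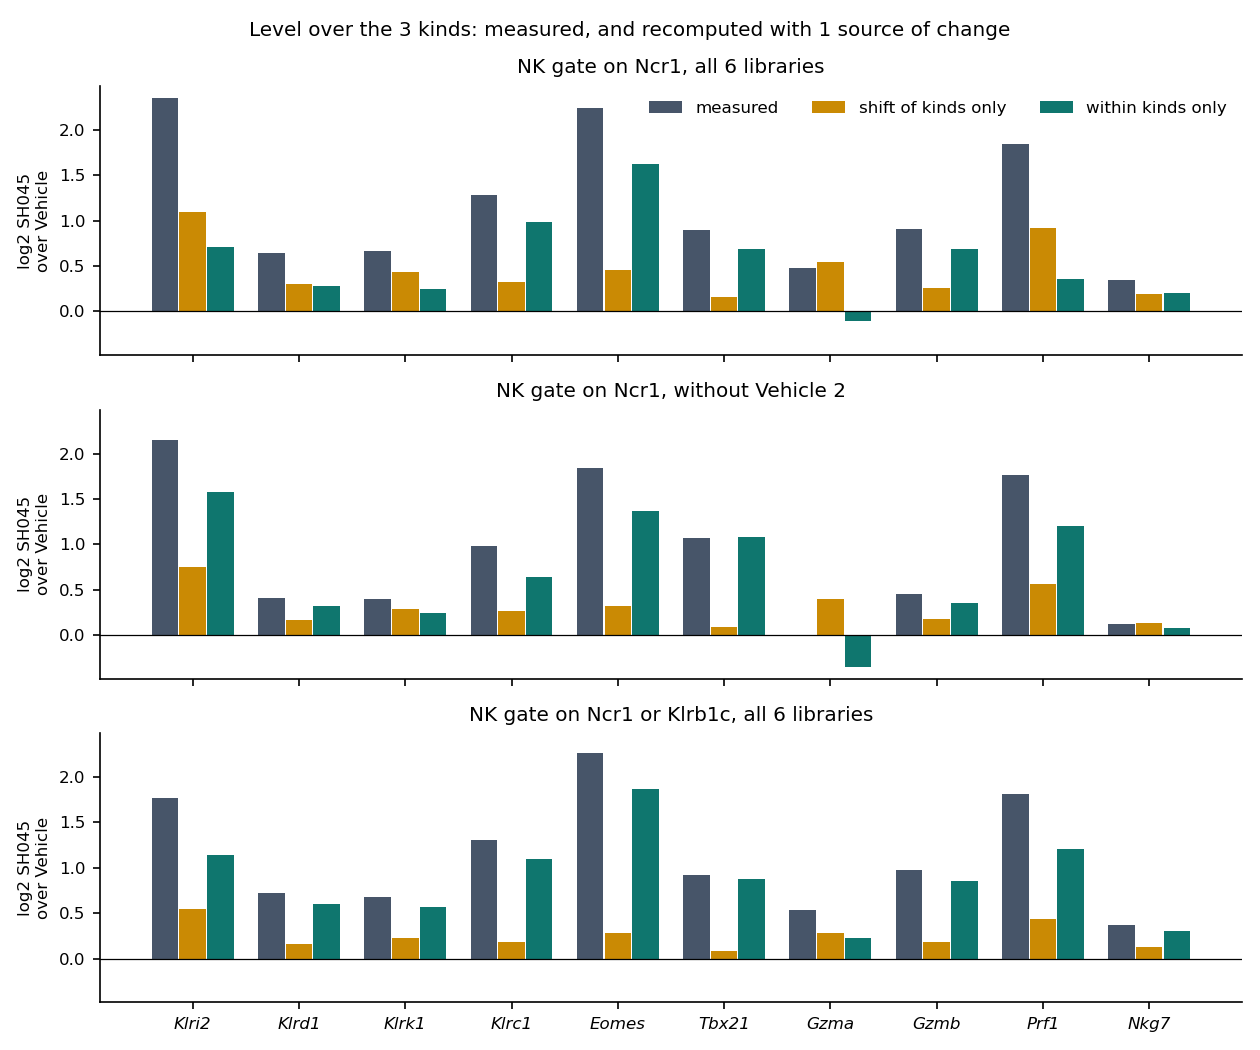
Log2 ratio of SH045 over Vehicle group means (y axis) for the level over all T and NK barcodes as measured, with only the shares of kinds varying, and with only the levels within kinds varying, for each member and under 3 versions of the sums. For Eomes the within-kinds bar is the larger in each version, while for Klri2 and Prf1 the larger bar changes between the first version (1.098 and 0.92 from the shift) and the other two.

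Beyond the members, 8 lists of related genes were counted. The lists too were chosen with earlier results of these data known, so their values are descriptions and no independent test. Among the other killer lectin-like receptors, 1 of 17 tested genes passed in whole libraries. This was Klri1, the inhibitory counterpart of Klri2, with a log2 change of -2.25 ± 0.47 (edgeR adjusted p = 0.0415), so it fell. Klri1 was at 0.357, 1.22 and 0.630 CPM in SH045 libraries, against 2.65, 2.28 and 4.23 CPM in Vehicle libraries, and 267 of its 281 UMIs were in ungated barcodes. Of the 6 fits that left out 1 library, 1 kept the call. The list's median log2 change was -0.18, against 0.01 over all genes. In T and NK barcodes together 0 of its 15 tested genes passed in edgeR, with a median of 0.75 against 0.02. Of the 15, 6 had an unadjusted p under 0.05, as did 15.38% of all genes tested there.

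Ifng, the cytokine by which killer cells activate macrophages, rose in T and NK barcodes together (log2 change 1.04 ± 0.20, edgeR adjusted p = 0.0451), the 1 of 7 cytokine and chemokine genes tested there that passed. It was at 74.9, 61.0 and 51.9 CPM in SH045 libraries, against 26.7, 32.6 and 23.9 CPM in Vehicle libraries. All SH045 values lay above all Vehicle values. The call was kept in 2 of the 6 fits that left out a library, and was lost with at least 2 Cd3 UMIs required or with macrophage and tubule marker barcodes removed, while its log2 change stayed between 0.80 and 1.17 over all alternatives. Il18r1, a receptor chain for interleukin 18, rose in other T barcodes (1.28 ± 0.25, edgeR adjusted p = 0.0447), at 41.2, 32.7 and 33.2 CPM in SH045 libraries, against 14.2, 14.02 and 11.8 CPM in Vehicle libraries. It was the 1 of 16 maturation and homing genes tested that passed there, and the call was kept in 3 of 14 alternatives. It was lost in all 6 fits without a library and with DESeq2, the replicate block, the 20% mitochondrial limit, Scrublet removal and marker barcode removal.

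In whole libraries 5 further list genes passed. With Klri1 these were 6 of the 108 list genes tested, or 5.56%, near the 4.31% of all genes. Slamf7, a receptor of activated leukocytes, fell by 0.94 on the log2 scale (edgeR adjusted p = 0.0303). Srgn, the granule proteoglycan serglycin, fell by 0.69 (edgeR adjusted p = 0.0284) and the chemokine gene Ccl4 fell by 0.98 (edgeR adjusted p = 0.0454). Gata3 rose by 1.18 (edgeR adjusted p = 0.037) and the integrin gene Itga1 by 0.73 (edgeR adjusted p = 0.0304). These are sums over all cells, and each lost the call in at least 4 of the 6 fits that left out a library. In whole libraries 0 of 10 T cell activation and exhaustion genes and 0 of 12 ligands of killer and death receptors passed in edgeR. Of these, 1 and 2 had an unadjusted p under 0.05, as did 26.65% of all genes there. In NK and CD8 T barcodes, no gene of the 8 lists passed in edgeR. Of the other killer receptors tested, 6 of 10 in NK and 1 of 2 in CD8 T barcodes had an unadjusted p under 0.05, as did 14.3% and 9.46% of all genes in those sums.

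Over the 18 sums of kind and library, 6314 genes with a mean of at least 20 CPM were ranked by Pearson's r with the mean standardized level of the members. The 8 nearest were Gm19585 (r = 0.96), Ptprc (0.92), Samd3 (0.90), AW112010 (0.89), Ctla2a (0.88), AC140209.1 (0.87), Ccl5 (0.87) and Klre1 (0.87). The 18 points share libraries, and the r values describe these sums. Klre1, the partner of Klri2, was at 355 CPM in NK, 50.1 CPM in CD8 T and 28.1 CPM in other T barcodes.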

How the data were processed

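The authors deposited unnormalized UMI counts for each library, 1 count per gene and barcode, which were checked to be whole numbers. Per the submitters' processing notes the build was mm10, and the aligner, annotation and cell-calling rule are not given in the sources used here. Per the labels, about 6000 cells were targeted per library on Singleron beads. Barcodes were kept and gated as described above, with no doublet removal in the main values. Counts were summed per library and kind and tested with edgeR 4.0.16 under R 4.3.3 (TMM, default low-count filter, robust quasi-likelihood, Benjamini-Hochberg limit 0.05), for sums with at least 10 barcodes in every library. This minimum kept the NK fit planned over 6 libraries from being made, and the 5-library fit stands in its place. The fit of NK minus CD8 T was planned over all 6 libraries and does not apply that minimum. Shares were compared by exact permutation tests. DESeq2 1.42.0, Scrublet (scanpy 1.11.5, top 5% of scores) and further gates were alternatives. The macrophage gate needed 3 UMIs of C1q genes and the tubule gate 3 UMIs of 7 tubule genes. Cells are not replicates, so n counts mice. Scripts were tested on simulated data. The members, lists and gates were chosen with earlier results of these data known. Named list genes are those passing with the smallest p, up to 4 per list, and the 8 genes nearest to the members.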

Additional observations from a re-analysis of the deposited data

Results flagged for a closer look

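Gzmb was flagged because its SH045 over Vehicle log2 change differed between kinds when that difference was fitted, by 3.92 (NK minus CD8 T). The Vehicle NK value rests on 4 UMIs in 30 barcodes, and the summed macrophage markers of NK barcodes were also higher in each Vehicle library. Gzma was flagged in the same fit with a difference of -3.16, since its level separated the groups in CD8 T but not in NK barcodes. Both values use the 3 NK barcodes of the second Vehicle library, and the genes were chosen on these libraries. Under the wider NK gate neither difference passed.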

How the results depend on the processing

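Counts of members passing depended on the settings. In whole libraries 0 of 10 passed in the main fit and 3 with DESeq2's test, with 2 higher and 1 lower in SH045 libraries. With no low-count filter 1 passed, as lower, and with the replicate number as a block 1 passed, as higher. When a library was left out, 0 to 1 passed. In T and NK barcodes together 1 passed in the main fit, 3 with DESeq2, 4 with no low-count filter, 2 with the replicate block and 0 with the wider NK gate, and 0 to 2 without a library. In CD8 T barcodes 0 to 1 passed without a library. In other T barcodes 2 passed with no low-count filter, both higher, and 0 to 1 without a library. The 1 that passed without the second Vehicle library was lower, and the 1 without the second SH045 library was higher. In the 5-library NK fit 2 passed with no low-count filter, with at most 20% mitochondrial UMIs and with the top 5% of Scrublet scores removed, and 0 to 2 without a further library, where a lone Vehicle library is assumed to vary like the others. With the wider NK gate 0 to 1 passed without a library. The block was not run in the 5-library NK set. SH045 and Vehicle libraries of the same number correlated by 0.022, 0.074 and 0.253, and those of different numbers by -0.183 to 0.12. Whether the numbers pair the mice cannot be told from these few values. Over all genes, calls numbered 713, 51, 0, 40 and 16 in the whole library, T and NK, CD8 T, other T and 5-library NK sums. DESeq2 gave 1968, 138, 19, 92 and 38, and the block gave 676, 74, 3 and 75 in the first 4.

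The difference in mean NK share kept its direction in all settings, at 5.42 to 8.63 percentage points without a library. With the wider NK gate the groups overlapped. The other T difference ran from -11.5 to -5.06 and the gated share difference from 1.55 to 5.15 points. The CD8 T difference of 1.24 points turned to -0.405 with macrophage and tubule marker barcodes removed, and ran from -1.22 to 3.71 without a library, with -0.261 without the first SH045 and -1.22 without the third Vehicle library. Members with the larger part from the shift numbered 3 to 6 without a library and 1 with the wider NK gate. The members passing between kinds numbered 1 to 2 without a library and 0 with the wider gate. Of 630 refitted log2 changes of members, 613 kept their sign. NK fits with macrophage and tubule marker barcodes removed, or with at least 2 Cd3 UMIs, were not made separately. The causes were not tested. With 30 Vehicle NK barcodes, depth limits each NK value. The added versions were chosen after seeing the data.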
